A study of Mus musculus with 2 samples.

Results

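The genes described here encode 10 members of the extracellular matrix protease system: 7 proteases (Mmp2, Mmp3, Mmp12, Mmp14, Mmp19, Adam12 and Adamts1) and 3 tissue inhibitors of metalloproteases (Timp1, Timp2 and Timp3). They were taken by symbol, from a list chosen with earlier results of these data known. All 10 were found among the 32285 genes counted in both single nucleus RNA sequencing (snRNA-seq) libraries. Both libraries came from frozen epididymal white adipose tissue (WAT), a visceral fat depot, of male mice that were 8 weeks old at the start, and each pooled the tissue of 3 mice. All mice were fed high-fat food (HF), for 6 weeks alone and for 8 more weeks during which PBS (HF-PBS, the control) or homoharringtonine (HHT, an inhibitor of protein synthesis; HF-HHT) was injected intraperitoneally 3 times a week. The methods name C57BL/6 N and p16-Luc mice for this diet without saying which gave the nuclei, and each condition is 1 library of 1 pool, so that the condition, the pool and the library cannot be told apart and no value below has a replicate. Molecules were counted by unique molecular identifiers (UMIs). Levels are given as CPM, the UMIs of a gene summed over all nuclei of a class and scaled by the UMIs of all genes in those nuclei, and ratios are log2 of HF-HHT over HF-PBS with an exact 95% interval. These intervals, and those of shares of nuclei (Clopper-Pearson) and of levels (Poisson), cover counting error only.

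Matrix metalloproteases (MMPs) are zinc endopeptidases that are made as inactive precursors and cut collagens, laminins, elastin and other matrix proteins outside the cell. ADAM proteases are membrane proteins that pair a metalloprotease with a disintegrin domain and release proteins from the cell surface, whereas ADAMTS proteases are secreted and cut proteoglycans. TIMPs bind the active site of these enzymes, and Timp2 also takes part in activation, since a complex of Mmp14 and Timp2 at the cell surface receives the precursor of Mmp2. In adipose tissue, adipocyte precursor cells (APCs) and macrophages are known sources of these enzymes, and the collagen around fat cells is remodeled as the depot expands.

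The counts of the 2 libraries summed to 76197757 UMIs in HF-PBS compared with 73313558 in HF-HHT, and 6655 and 6445 nuclei were kept, with medians of 4315 and 3971 UMIs. Of the kept barcodes, 13 occurred in both libraries. Named by marker genes, the nuclei included 752 APCs in HF-PBS against 676 in HF-HHT, 3594 and 2221 macrophages, 150 and 845 adipocytes, 160 and 315 mesothelial cells, 99 and 404 endothelial cells, and 28 and 29 perivascular cells. The libraries differed in the classes of nuclei they held: 688 nuclei of duct-like epithelium and 121 of multiciliated epithelium were found in HF-HHT and 0 in HF-PBS, and B cells numbered 743 in HF-PBS against 47. In free RNA, markers of duct-like epithelium summed to 38.5 CPM in HF-PBS versus 482 CPM in HF-HHT. The part of these differences in the results below was not tested. A cluster of erythroid nuclei is left out of all comparisons, because its 54 nuclei from HF-PBS held 214 CPM of erythroid markers, against 19638 CPM in HF-HHT. Free RNA, which barcodes without a nucleus hold and nuclei also take up, was read from the barcodes ranked 45000 to 90000 by UMIs in each library. Its part in each class, from markers of other cell types, was put at 5.8% and 5.23% of UMIs in macrophages, 8.04% and 8.07% in APCs, 5.14% and 2.98% in adipocytes, 8.09% and 7.42% in mesothelial cells, and 21% and 13.1% in endothelial cells. Each is a low estimate, from the marker list with the lowest ratio to free RNA among those with at least 20 UMIs. Other lists give a larger part. Adipocyte markers in macrophages, for example, summed to 157 and 534 CPM, beside 824 and 3238 CPM in free RNA.

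Promoter sequence was at hand for 7 of the 10 genes (RefSeq, GRCm38.p6), and 3 are shown, for Mmp12 and Mmp14, which differed between the libraries in opposite directions in macrophages, and for Mmp3, which lies 76.3 kb past the end of Mmp12 in the same gene cluster. Each run gives the 250 bases before the annotated start, 5′ to 3′ along the gene, and capitals mark 3 motifs searched on both strands. The letters TGAGTCA are the site of AP-1, a factor known to bind ahead of many MMP genes. The letters TATAAA are a TATA box, which helps to place the start of transcription. The letters GGGCGG are a GC box, which factors of the Sp1 family bind.
Mmp12, chr9:7347124-7347373, plus strand: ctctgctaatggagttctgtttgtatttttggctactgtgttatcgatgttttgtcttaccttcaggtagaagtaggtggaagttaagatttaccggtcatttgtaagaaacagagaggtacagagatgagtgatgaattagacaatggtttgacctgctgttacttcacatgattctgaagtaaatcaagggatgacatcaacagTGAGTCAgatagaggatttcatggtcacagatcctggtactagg
Mmp3, chr9:7445572-7445821, plus strand: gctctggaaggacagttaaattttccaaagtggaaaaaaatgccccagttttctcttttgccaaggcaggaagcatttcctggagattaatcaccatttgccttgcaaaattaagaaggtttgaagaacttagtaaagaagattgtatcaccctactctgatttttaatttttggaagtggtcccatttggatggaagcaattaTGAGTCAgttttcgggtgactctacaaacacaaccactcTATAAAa
Mmp14, chr14:54431348-54431597, plus strand: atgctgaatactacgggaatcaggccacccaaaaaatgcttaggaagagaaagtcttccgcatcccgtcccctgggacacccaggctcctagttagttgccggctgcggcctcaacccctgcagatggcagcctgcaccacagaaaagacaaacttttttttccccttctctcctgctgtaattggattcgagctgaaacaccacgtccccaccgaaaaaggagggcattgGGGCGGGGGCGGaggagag
The AP-1 letters stood in Mmp12 and Mmp3, with their first base 44 and 46 bases before the start, and in none of the other 5 genes. Of 32851 promoters of the same length, 4.46% held these letters, 12.4% held the TATA letters and 32.7% the GC box letters. The run of Mmp14 held 2 adjoining GC boxes and neither of the other motifs. For Mmp12 a further start is annotated upstream, whose 250 bases held none of the 3 motifs.

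Adam12, a disintegrin and metalloprotease of mesenchymal cells, was highest in APCs, and it was lower there in HF-HHT. The gene spans 349 kb of the minus strand at chr7:133883199-134232146 (GRCm38, GENCODE vM21) and holds 3 smaller annotated genes on the same strand, 1 of which, A130023I24Rik, is counted on its own in the files. Its level in APCs was 2975 CPM in HF-PBS (95% interval 2928 to 3023, 15117 UMIs) compared with 1101 CPM in HF-HHT (1062 to 1140.3, 3070 UMIs), a log2 ratio of -1.43 (-1.49 to -1.38). Both levels stood above free RNA, at 9.86 and 7.75 times its 302 and 142 CPM. A UMI of Adam12 was found in 89.5% (87.1% to 91.6%) of APC nuclei in HF-PBS against 53.3% (49.4% to 57.1%) in HF-HHT, and in 82.7% and 54.9% after each nucleus was thinned to 2000 UMIs, which left 710 and 525 nuclei that were deep enough. In macrophages, where the level was 0.0584 and 0.047 times that of free RNA, these shares were 9.71% and 3.15%, at median depths of 4945 and 4069 UMIs against 5778 and 3347 in APCs, and the macrophage level of 17.6 and 6.67 CPM was close to what the free RNA in that class would give (17.5 and 7.43 CPM). The difference in APCs was thus one of the share of nuclei as well as of the summed level, and the median nucleus held 22.5 Adam12 UMIs per 10000 in HF-PBS versus 2.2 in HF-HHT.

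**Figure D1:**
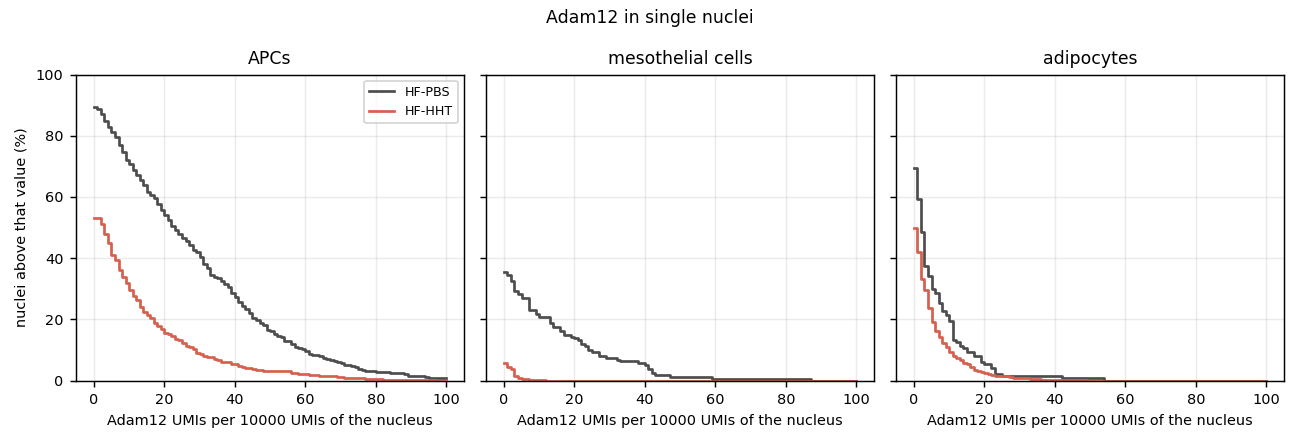
Percent of nuclei (vertical axis) whose Adam12 UMIs per 10000 UMIs of the nucleus exceed the value on the horizontal axis, in APCs, mesothelial cells and adipocytes of HF-PBS (grey) and HF-HHT (red), with 1 library per condition. The grey curve starts at 89.5% in APCs and the red one at 53.3%; in mesothelial cells the curves start at 35.6% and 5.71%.

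Within APCs, Adam12 was lower in HF-HHT in each of the 3 clusters of at least 50 nuclei in the class. In the larger cluster, named by its markers as APCs other than progenitors (578 and 397 nuclei), it was 3464 CPM in HF-PBS compared with 1501 CPM in HF-HHT, a log2 ratio of -1.21 (-1.27 to -1.15). That cluster is led by Notch3, Tnc, Fbn2 and Flt1. With states set from the markers of each nucleus, 220 and 45 nuclei had this state, and the log2 ratio was -0.75 (-0.88 to -0.61). In the Dpp4 Pi16 progenitors, the interstitial precursors of fat cells (143 and 150 nuclei), Adam12 was 809 CPM in HF-PBS against 396 CPM in HF-HHT, a log2 ratio of -1.03 (-1.26 to -0.80). The remaining cluster, led by Pdlim3 and Gria4 and given no name (30 and 120 nuclei), had 805 and 237 CPM. Progenitors therefore held Adam12 at a lower level than the larger cluster in both libraries. With the clusters weighted as in HF-PBS, an alternative chosen after seeing the data, the log2 ratio over all APCs was -1.20.

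Outside APCs, Adam12 was next highest in perivascular cells, the mural cells of small vessels, at 1851 CPM in HF-PBS (255 UMIs in 28 nuclei) versus 686 CPM in HF-HHT (67 UMIs in 29 nuclei), a log2 ratio of -1.43 (-1.84 to -1.04). Adipocytes held 478 CPM (921 UMIs) in HF-PBS compared with 318 CPM (3188 UMIs) in HF-HHT, a log2 ratio of -0.59 (-0.69 to -0.48), which lies at the 1.5-fold limit used here and drops under it without the upper depth limits (-0.45) or without the nucleus richest in Adam12 (-0.56). Markers of APCs summed to 365 CPM in HF-PBS against 199 CPM in HF-HHT in adipocytes (none of 8 at 0), and perivascular markers to 228 and 61.6 CPM (2 and 1 of 7 at 0). Their part in the result was not tested. In endothelial cells the interval includes 0, with 231 and 235 CPM, 0.765 and 1.65 times free RNA, and a log2 ratio of 0.02 (-0.32 to 0.37), although the ratio was -0.90 with classes from the markers of each nucleus. The 2 clusters of this class went in opposite directions. Blood vessel endothelium had 201 and 128 CPM, a log2 ratio of -0.65 (-1.22 to -0.06), with both levels under free RNA (302 and 142 CPM). Lymphatic endothelium had 252 and 410 CPM, a log2 ratio of 0.70 (0.28 to 1.14). Among these 5 classes the order of the levels was APCs, perivascular cells, mesothelial cells, adipocytes and endothelial cells in HF-PBS, and APCs, perivascular cells, adipocytes, endothelial cells and mesothelial cells in HF-HHT. The endothelial level in HF-PBS and the mesothelial level in HF-HHT lay under that of free RNA.

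The largest ratio of any member in the 5 main classes was that of Adam12 in mesothelial cells, the cells that line the surface of the depot. They held 860.2 CPM in HF-PBS (1085 UMIs in 57 of 160 nuclei) against 23.4 CPM in HF-HHT (45 UMIs in 18 of 315 nuclei), a log2 ratio of -5.20 (-5.66 to -4.77). In HF-HHT, 21 of the 45 UMIs came from 1 nucleus, and the richest nucleus of HF-PBS held 71. Without the richest nucleus of each library the log2 ratio was -6.002, with doublets kept -4.48, and with classes set from the markers of each nucleus alone -2.88. The make-up of the class moved with this result: markers of mesothelium summed to 1633 CPM in HF-PBS versus 3611 CPM in HF-HHT. In HF-PBS, the 57 nuclei with a UMI of Adam12 held 1104 CPM of mesothelial markers and 2880.1 CPM of APC markers, and the 103 nuclei without one held 2025 and 3228 CPM. Perivascular markers summed to 83.9 CPM in the nuclei with Adam12 against 17.9 CPM in those without. Adipocyte markers summed to 211 and 177 CPM, and macrophage markers to 190 and 241 CPM. The median depths of these nuclei were 9386 and 6510 UMIs. APC markers stood at 3080.0 and 3481 CPM in the mesothelial cells of the libraries and at 9155 and 7722 CPM in APCs. The part of this make-up in the Adam12 result was not tested.

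Adamts1, a secreted protease that cuts the proteoglycans versican and aggrecan, was higher in APCs and lower in adipocytes in HF-HHT. It lies at chr16:85793827-85803113 and overlaps no other gene. In APCs its level was 16.9 CPM in HF-PBS (13.5 to 20.9, 86 UMIs) compared with 55.2 CPM in HF-HHT (46.8 to 64.7, 154 UMIs), a log2 ratio of 1.71 (1.32 to 2.10). Free RNA held 23.5 and 27.9 CPM, so that the APC level lay below free RNA in HF-PBS and was 1.98 times free RNA in HF-HHT. The larger APC cluster had 12.8 and 62.7 CPM, a log2 ratio of 2.29 (1.81 to 2.79), while the progenitors, with 34.5 and 41.4 CPM, had an interval that includes 0 (-0.61 to 1.13). In adipocytes, Adamts1 was 65.3 CPM in HF-PBS (126 UMIs) against 30.2 CPM in HF-HHT (303 UMIs), a log2 ratio of -1.11 (-1.42 to -0.80), beside the lower APC and perivascular markers in this class given above, whose part was not tested. In mesothelial cells it was 30.9 and 18.2 CPM, and the log2 ratio of -0.76 (-1.46 to -0.07) came to -0.52 without the richest nucleus of each library and to -0.15 with classes from the markers of each nucleus.

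**Figure D2:**
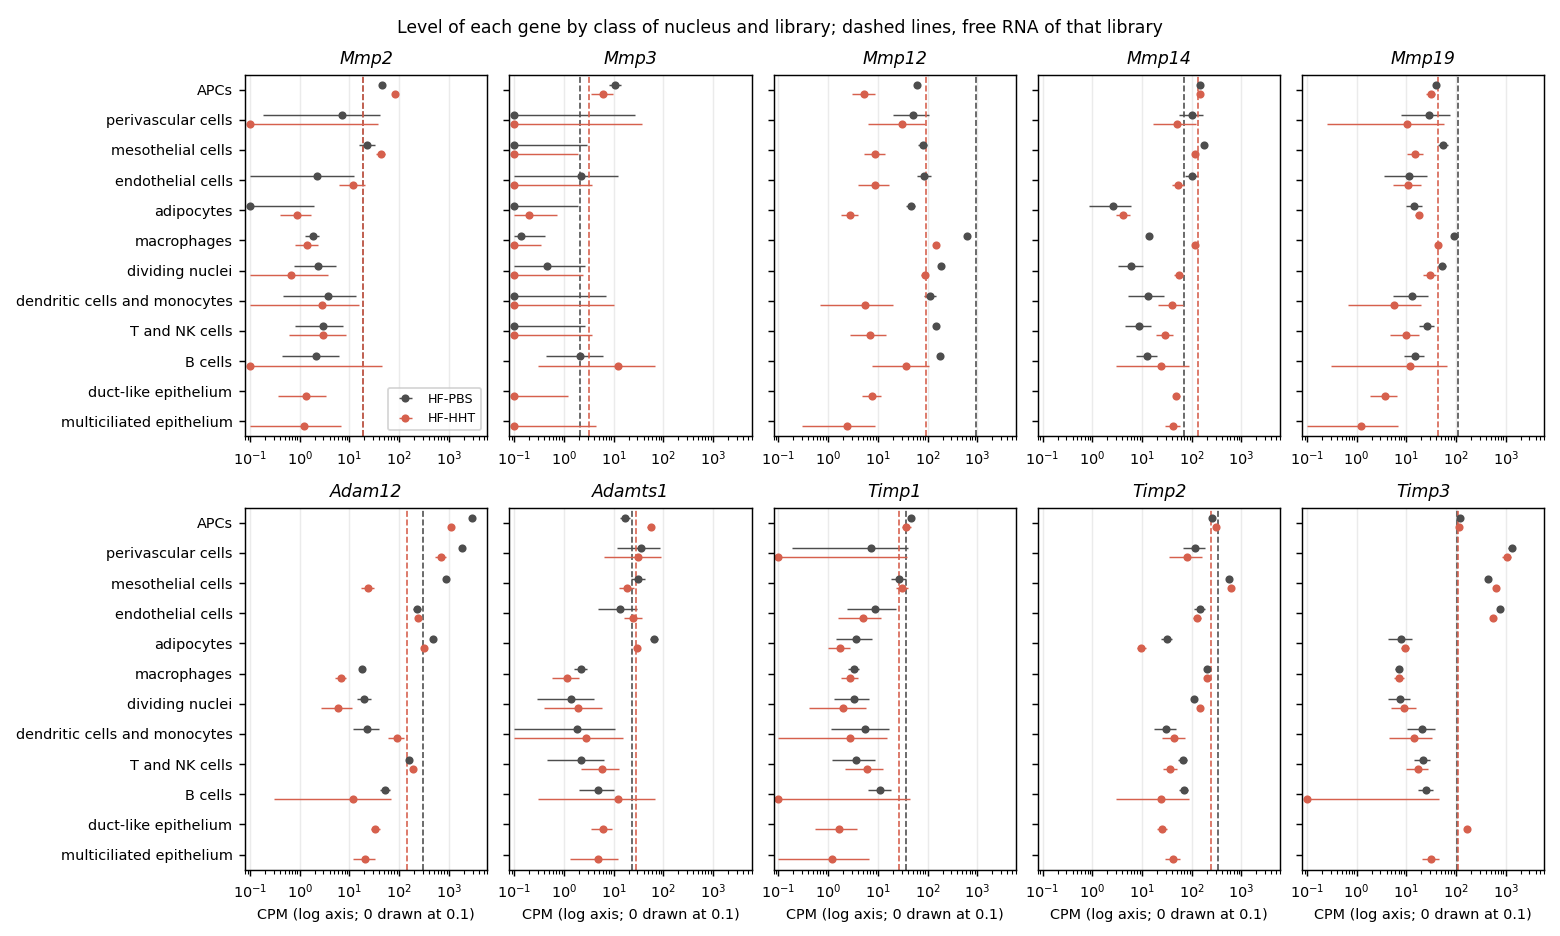
Level of each of the 10 genes (CPM, log axis, a level of 0 drawn at 0.1) in 12 classes of nuclei of HF-PBS (grey) and HF-HHT (red), as points with 95% Poisson intervals; dashed lines give the level in free RNA of each library. Adam12 in APCs (2975 and 1101 CPM) and Timp3 in endothelial cells (766 and 557 CPM) lie to the right of both lines, and Mmp12 in APCs (61 and 5.38 CPM) lies to the left of them.

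Mmp14 is the membrane-anchored collagenase that mouse fat cell precursors need to remodel the collagen around them. In macrophages it was higher in HF-HHT, whereas in APCs it did not differ beyond counting error. It lies at chr14:54431612-54445364 on the plus strand and overlaps no other gene, and its promoter is shown above. In macrophages its level was 14.1 CPM in HF-PBS (12.5 to 15.7, 302 UMIs) versus 117 CPM in HF-HHT (111 to 124, 1246 UMIs), a log2 ratio of 3.06 (2.88 to 3.25). The share of macrophage nuclei with a UMI was 6.29% (5.52% to 7.13%) in HF-PBS compared with 27.1% (25.2% to 29%) in HF-HHT, and 2.93% and 16.8% after thinning. In adipocytes, whose Mmp14 level was 0.038 and 0.031 times that of free RNA, the share was 2.67% and 4.62% at median depths of 13092 and 11625 UMIs. Free RNA differed in the same direction, with 68.2 and 135 CPM, and lay above the macrophage level in both libraries. Once the estimated free RNA part of the class was subtracted, the levels were 10.7 and 116 CPM. That part is a low estimate, from 48 and 94 UMIs of epithelial markers. How much of the difference comes from free RNA was not tested.

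Every macrophage cluster with at least 20 Mmp14 UMIs had a higher level in HF-HHT. Of the 6 clusters with at least 50 nuclei, 2 are monocyte-like by their markers. The Olr1 cluster, led by Olr1 and Nos2, had the highest level of Mmp14 in both libraries, with 93.9 CPM in HF-PBS against 303 CPM in HF-HHT, a log2 ratio of 1.69 (1.39 to 2.003), and it alone exceeded the level of free RNA in both. The Vcan cluster, led by Skint3, Adgrl3, Sirpb1a and Vcan, had 19.2 and 98.5 CPM. The unnamed cluster led by Nrg2 and Vcam1 had 13.5 and 90.8 CPM, a log2 ratio of 2.75 (2.37 to 3.14). Lipid-associated macrophages, the lipid-laden state known for Gpnmb and Trem2, had 4.5 and 13.9 CPM. The make-up of the class differed between the libraries. The Nrg2 Vcam1 and Shisa9 Lpl clusters held 1272 and 1074 of 3594 nuclei in HF-PBS (35.4% and 29.9%). In HF-HHT they held 561 and 378 of 2221 (25.3% and 17%). Both monocyte-like clusters together held 413 nuclei in HF-PBS against 879 in HF-HHT. The Olr1 cluster held 181 nuclei in HF-PBS versus 469 in HF-HHT, with 63.6% of the macrophage Mmp14 UMIs there. Neutrophil markers also differed in macrophages, with 45.4 CPM in HF-PBS (2 of 5 at 0) versus 189 CPM in HF-HHT (none at 0), beside 32.4 and 87.8 CPM in free RNA, and their part in the results was not tested. With the clusters weighted as in HF-PBS, chosen after seeing the data, the log2 ratio over all macrophages was 2.11.

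**Figure D3:**
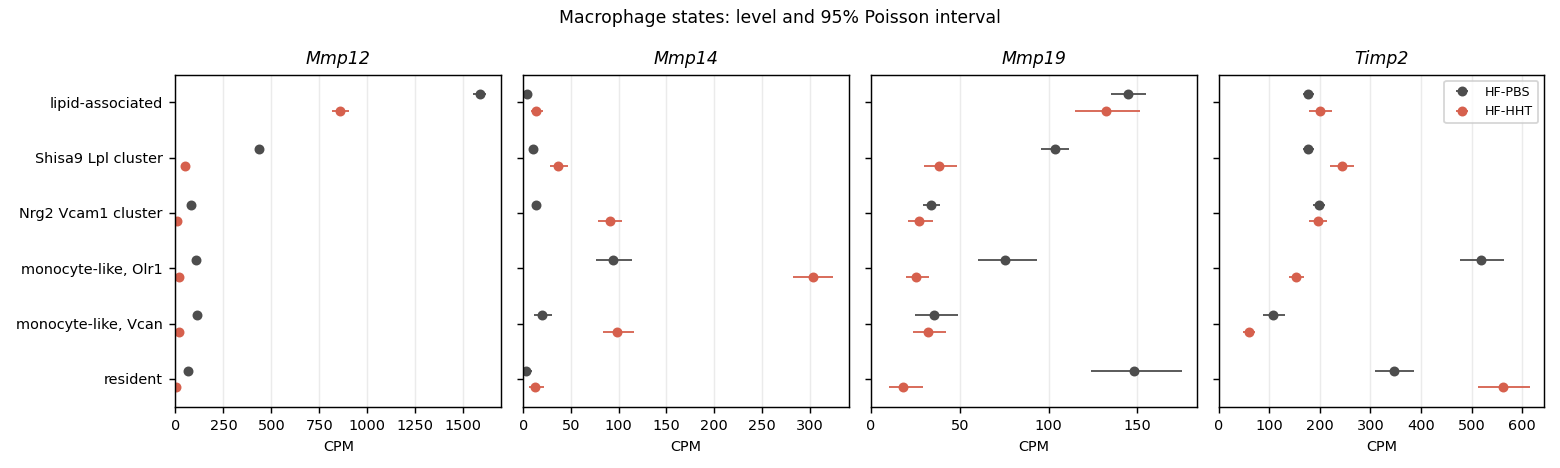
Levels (CPM, horizontal axes) of Mmp12, Mmp14, Mmp19 and Timp2 in the 6 clusters of macrophages with at least 50 nuclei, of HF-PBS (grey) and HF-HHT (red), as points with 95% Poisson intervals; 2 clusters without a name are labelled by leading genes. Mmp12 peaks in lipid-associated macrophages (1585 and 859 CPM) and Mmp14 in the monocyte-like Olr1 cluster (93.9 and 303 CPM).

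In none of the other 4 main classes was Mmp14 higher in HF-HHT beyond counting error. APCs held 147 CPM in HF-PBS (745 UMIs) compared with 149.5 CPM in HF-HHT (417 UMIs), a log2 ratio of 0.03 (-0.15 to 0.20), so that any difference there was small against that in macrophages as far as counting error goes. In mesothelial cells the level was 175 CPM in HF-PBS against 117 CPM in HF-HHT, a log2 ratio of -0.59 (-0.86 to -0.31), at the 1.5-fold limit and -0.06 with classes from the markers of each nucleus. Endothelial cells had 99.9 CPM (45 UMIs) and 53.2 CPM (54 UMIs), a log2 ratio of -0.91 (-1.51 to -0.30). Lymphatic endothelium held 34 and 39 of these UMIs, with a log2 ratio of -0.35 (-1.05 to 0.36). Blood vessel endothelium held 11 and 15, with a log2 ratio of -1.30 (-2.52 to -0.03). Lymphatic markers summed to 5607 and 2992 CPM in the class, and their part in the result was not tested. In dividing nuclei, which carry macrophage markers (2931 and 3688 CPM), Mmp14 was higher in HF-HHT, with 6.06 and 54.3 CPM from 13 and 83 UMIs. It was also higher in T and NK cells (12 and 29 UMIs), with a log2 ratio of 1.71 (0.69 to 2.82). Dendritic cells and monocytes (7 and 14 UMIs) had a log2 ratio of 1.57 (0.17 to 3.12). Both classes lay under free RNA, at 0.129 and 0.214 times and at 0.192 and 0.29 times its level. In B cells and perivascular cells the interval included 0.

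Mmp2, the gelatinase whose precursor the Mmp14 and Timp2 complex activates, was found above free RNA in APCs, and was higher there in HF-HHT. The gene lies at chr8:92827291-92853420 and overlaps no other gene. APCs held 46.3 CPM in HF-PBS (40.5 to 52.6, 235 UMIs) versus 82.8 CPM in HF-HHT (72.5 to 94.2, 231 UMIs), 2.47 and 4.32 times free RNA, and the log2 ratio was 0.84 (0.57 to 1.11). A UMI was found in 19.8% and 25.9% of APC nuclei, and in 8.31% and 15.8% after thinning. The larger APC cluster had 42 CPM in HF-PBS compared with 89.95 CPM in HF-HHT, a log2 ratio of 1.10 (0.78 to 1.42), and the progenitors stood at 62.3 and 70.3 CPM, with an interval that includes 0 (-0.48 to 0.82). Mesothelial cells held 23 CPM (29 UMIs) in HF-PBS against 42.7 CPM (82 UMIs) in HF-HHT, a log2 ratio of 0.89 (0.27 to 1.56) that came to 0.47 with every barcode of at least 500 UMIs. Macrophages and adipocytes held at most 1.81 CPM, far under free RNA (18.7 and 19.2 CPM). Of Mmp2, Mmp14 and Timp2, therefore, only Mmp2 passed the 1.5-fold limit in APCs.

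Mmp12, macrophage elastase, was found above free RNA in lipid-associated macrophages, and was lower in macrophages of HF-HHT. It lies at chr9:7344381-7369499, and its last part overlaps Mmp1b on the other strand. Macrophages held 612 CPM in HF-PBS (602 to 623, 13153 UMIs) versus 145 CPM in HF-HHT (138 to 152, 1539 UMIs), a log2 ratio of -2.08 (-2.16 to -2.005). A UMI was found in 42.3% of macrophage nuclei in HF-PBS compared with 8.82% in HF-HHT, and in 25.9% and 6.28% after thinning. Lipid-associated macrophages held most of it, 72.3% of the macrophage UMIs in HF-PBS against 88.3% in HF-HHT. In that state the level was 1585 CPM in HF-PBS (691 nuclei) versus 859 CPM in HF-HHT (263 nuclei), a log2 ratio of -0.88 (-0.97 to -0.80), smaller in size than that over all macrophages. The unnamed cluster led by Shisa9, Smpd3 and Lpl had 435 and 51.1 CPM, a log2 ratio of -3.09 (-3.40 to -2.79). With the clusters weighted as in HF-PBS, chosen after seeing the data, the log2 ratio over all macrophages was -1.24.

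Free RNA was rich in Mmp12, with 941 CPM in HF-PBS compared with 94 CPM in HF-HHT, a 10.0-fold difference. In the other 4 main classes the level of Mmp12 lay far below free RNA and was lower in HF-HHT, as it was in free RNA. APCs held 61 and 5.38 CPM, 0.0648 and 0.0572 times free RNA, and adipocytes 45.6 and 2.79 CPM, 0.0485 and 0.0297 times free RNA. The log2 ratio was -3.50 in APCs, -4.03 in adipocytes, -3.18 in mesothelial cells and -3.29 in endothelial cells, and free RNA and expression cannot be told apart in these classes. In APCs the free RNA part alone came to 75.6 and 7.59 CPM, above what was counted. Dividing nuclei, which carry macrophage markers, held 186 CPM in HF-PBS against 86.9 CPM in HF-HHT, 0.198 and 0.925 times free RNA.

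Mmp19, which cuts proteins of the basement membrane, was lower in macrophages of HF-HHT. The gene at chr10:128790910-128800824 is overlapped on the other strand by Gm47093 and Tmem198b. Macrophages held 93.1 CPM in HF-PBS (89.1 to 97.3, 2001 UMIs) against 44.3 CPM in HF-HHT (40.4 to 48.5, 471 UMIs), a log2 ratio of -1.07 (-1.22 to -0.93). By state, the values were as follows. Lipid-associated macrophages had 145 and 132 CPM, with an interval that includes 0 (-0.36 to 0.09), and resident macrophages, led by genes of the Cd209 family, had 148 CPM in HF-PBS (134 UMIs) versus 17.9 CPM in HF-HHT (15 UMIs), a log2 ratio of -3.05 (-3.92 to -2.27) that was -1.60 with states set from the markers of each nucleus. Mesothelial cells also had a lower level in HF-HHT, 15.1 CPM against 55.5 CPM, a log2 ratio of -1.88 (-2.55 to -1.23), both levels being under that of free RNA (107 and 44.2 CPM). APCs (39.8 and 31.2 CPM) and adipocytes (14.5 and 17.7 CPM) did not pass the 1.5-fold limit.

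Mmp3, stromelysin-1, was rare. It lies at chr9:7445822-7455975 and overlaps no other gene. In APCs, 54 UMIs in HF-PBS compared with 17 in HF-HHT gave 10.6 and 6.09 CPM, found in 1.46% of nuclei in HF-PBS against 1.48% in HF-HHT. Of the 54 UMIs in HF-PBS, 28 came from 1 nucleus. The log2 ratio of -0.80 (-1.68 to 0.01) was -0.13 without the richest nucleus of each library, so no difference beyond single nuclei was detectable at this depth. No other compared class reached 20 UMIs.

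Timp2, an inhibitor that also carries the precursor of Mmp2 to Mmp14, was highest in mesothelial cells among the classes compared and differed between the libraries by less than 1.5-fold in every main class but adipocytes. It lies at chr11:118301069-118355740 and has Cep295nl within it on the same strand. Mesothelial cells held 557 CPM in HF-PBS (703 UMIs) versus 616 CPM in HF-HHT (1183 UMIs), a log2 ratio of 0.15 (0.01 to 0.28). APCs held 255 and 312 CPM, a log2 ratio of 0.29 (0.16 to 0.41), and in both libraries the progenitors (557 and 578 CPM) lay above the larger APC cluster (195 and 228 CPM). Macrophages as a whole held 204 and 204 CPM, with an interval of the log2 ratio from -0.08 to 0.07. Single states did not share this equal level. The monocyte-like Olr1 cluster had 518 CPM in HF-PBS compared with 154 CPM in HF-HHT, a log2 ratio of -1.76 (-1.94 to -1.57). Both monocyte-like clusters together had a log2 ratio of -1.44, which was -0.85 with states set from the markers of each nucleus. Resident macrophages had 346 and 562 CPM, a log2 ratio of 0.70 (0.49 to 0.91). In adipocytes, 31.1 CPM in HF-PBS against 9.66 CPM in HF-HHT lay far under free RNA (329.8 and 246 CPM), and free RNA and expression cannot be told apart there.

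Timp3, the inhibitor that binds to the matrix and also blocks ADAM and ADAMTS proteases, stood above free RNA in perivascular, endothelial and mesothelial cells. The gene lies at chr10:86300372-86349506 inside Syn3, which runs on the other strand. Its highest levels were in perivascular cells, with 1314 CPM in HF-PBS (181 UMIs) versus 1054 CPM in HF-HHT (103 UMIs), 12.3 and 9.44 times free RNA. Endothelial cells held 766 CPM (687 to 851) in HF-PBS compared with 557 CPM (512 to 605) in HF-HHT, a log2 ratio of -0.46 (-0.66 to -0.26). The class joins 2 clusters. Blood vessel endothelium had 540.5 and 421 CPM, and lymphatic endothelium had 928 and 782 CPM. Mesothelial cells had a higher level in HF-HHT, 652 CPM (1251 UMIs) against 441 CPM (556 UMIs), a log2 ratio of 0.56 (0.42 to 0.71), just under the 1.5-fold limit. Over 12 alternatives of the processing this ratio ranged from 0.13 to 0.59, with 3 outside the interval and 1 past the limit. APCs held 119 and 117 CPM, close to free RNA (107 and 112 CPM), and macrophages and adipocytes less than 10 CPM. Duct-like epithelium, present in HF-HHT alone, held 166 CPM (501 UMIs).

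Timp1, a secreted inhibitor of most MMPs, had its higher levels in APCs and mesothelial cells and did not pass the 1.5-fold limit in either. Of 13 alternatives of the processing, 1 passed this limit in APCs, with a log2 ratio of -0.65. Free RNA held 36.1 and 27.1 CPM of Timp1. The gene at chrX:20870166-20874735 lies inside Syn1, which runs on the other strand. APCs held 46.1 CPM in HF-PBS (234 UMIs) against 37.6 CPM in HF-HHT (105 UMIs), a log2 ratio of -0.29 (-0.64 to 0.05), whereas the share of nuclei with a UMI was 18.1% and 5.03%, and 6.9% and 3.24% after thinning. By cluster, progenitors had 35.8 CPM in HF-PBS (27 UMIs) versus 3.6 CPM in HF-HHT (2 UMIs), a log2 ratio of -3.31 (-6.43 to -1.32) that was -1.88 with states set from the markers of each nucleus. The larger APC cluster had 47.5 and 55.6 CPM, a log2 ratio of 0.23 (-0.13 to 0.58). Mesothelial cells held 26.2 and 30.7 CPM, 0.726 and 1.13 times free RNA, and the APC level was 1.28 and 1.39 times free RNA.

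**Figure D4:**
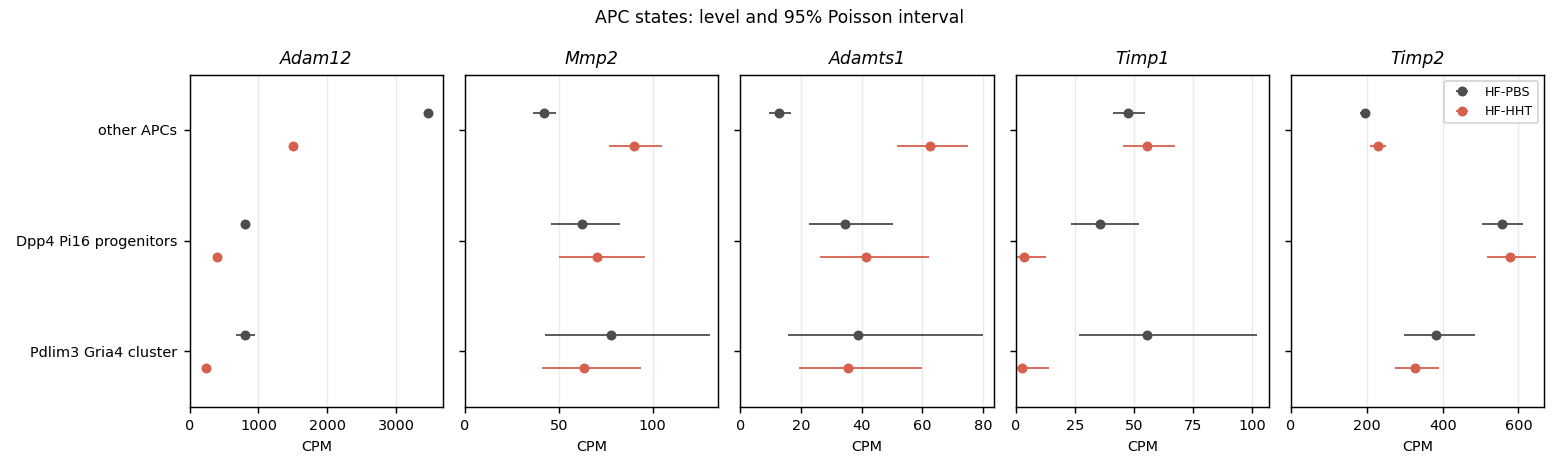
Levels (CPM, horizontal axes) of Adam12, Mmp2, Adamts1, Timp1 and Timp2 in the 3 clusters of APCs with at least 50 nuclei, of HF-PBS (grey) and HF-HHT (red), as points with 95% Poisson intervals. Adam12 is lower in HF-HHT in each cluster, with 3464 and 1501 CPM in the larger one, while Mmp2 (42 and 89.95 CPM) and Adamts1 (12.8 and 62.7 CPM) are higher there.

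Counted by class, a gene was taken as measured with at least 20 UMIs over both libraries, and as higher or lower from a 1.5-fold difference in CPM. In APCs all 10 members were measured, 2 were higher (Mmp2 and Adamts1) and 3 lower (Mmp3, Mmp12 and Adam12) in HF-HHT, where 23.1% of all genes measured in APCs were higher and 7.93% lower. In macrophages, 1 of 9 was higher (Mmp14) and 4 were lower (Mmp12, Mmp19, Adam12 and Adamts1), against 25.8% and 8.38% of all genes. In adipocytes, 1 of 8 was higher (Mmp14, from 5 and 42 UMIs) and 5 were lower (Mmp12, Adam12, Adamts1, Timp1 and Timp2), against 35.2% and 12.2%. In mesothelial cells, 1 of 9 was higher (Mmp2) and 5 were lower (Mmp12, Mmp14, Mmp19, Adam12 and Adamts1), against 23.7% and 13.6%. In endothelial cells, 1 of 6 was higher (Adamts1, from 6 and 25 UMIs) and 2 were lower (Mmp12 and Mmp14), against 23.3% and 10.3%. In the library with the higher level, the lower members that reached 2 times free RNA were Mmp3 and Adam12 in APCs, Mmp14 and Adam12 in mesothelial cells and Adamts1 in adipocytes. Much of the Mmp3 count came from 1 nucleus, as given above. No lower member did so in macrophages or endothelial cells. Of the higher members, Mmp2 did so in APCs and in mesothelial cells. The share of all genes that did so was not taken, so these are named without reading anything from their number. Mmp12 was lower in free RNA too (941 and 94 CPM). Macrophage Adam12 (17.6 and 6.67 CPM) was close to its free RNA part (17.5 and 7.43 CPM). The median log2 ratio of the measured members was -0.16 in APCs, -0.36 in macrophages, -0.84 in adipocytes, -0.59 in mesothelial cells and -0.32 in endothelial cells, beside 0.17, 0.16, 0.31, 0.09 and 0.11 over all genes measured there. Scaling with TMM factors shifts every log2 ratio of a class by the same amount, by -0.16 in APCs, -0.15 in macrophages, -0.27 in adipocytes, -0.08 in mesothelial cells and -0.10 in endothelial cells.

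In the 5 main classes few members stood above free RNA in both libraries. At least 2 times the level of free RNA in both libraries was reached by 2 members in APCs (Mmp2 and Adam12; 10.7% of all genes measured), 1 in mesothelial cells (Timp3; 11%) and 1 in endothelial cells (Timp3; 11.2%). None reached it in macrophages (2.54% of all genes) or in adipocytes (7.57%). Mmp12 in lipid-associated macrophages, at 859 CPM against 94 CPM in free RNA of HF-HHT and 1585 against 941 CPM in HF-PBS, exceeded free RNA in both libraries.

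**Figure D5:**
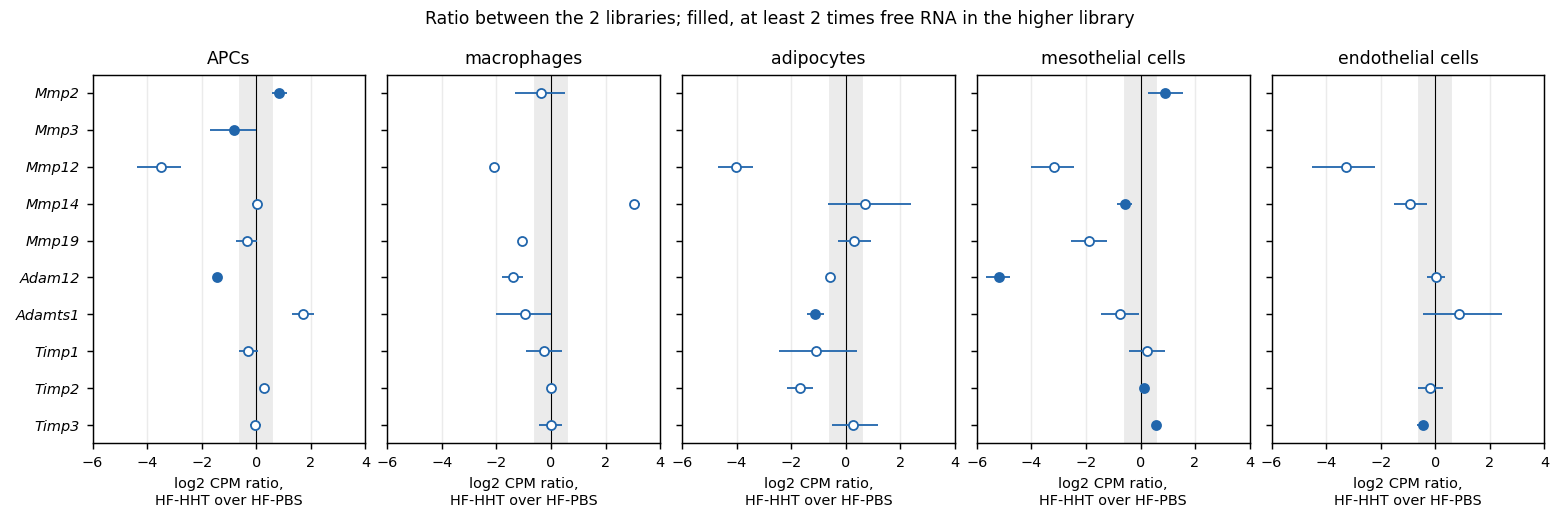
Log2 ratio of CPM, HF-HHT over HF-PBS (horizontal axes), of each member with at least 20 UMIs in 5 classes, with exact 95% intervals for counting error; the grey band spans 1.5-fold in either direction, and filled points mark genes at least 2 times above free RNA in the library with the higher level. Adam12 lies at -5.20 in mesothelial cells and -1.43 in APCs, and Mmp14 at 3.06 in macrophages.

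The wider protease system was read from a list of 53 further matrix proteases and 21 inhibitors, activators and receptors. In APCs, where 23.1% of all measured genes were higher and 7.93% lower in HF-HHT, 10 of 36 measured proteases were higher and 7 lower, and 5 of 18 inhibitors, activators and receptors were higher and 4 lower. In macrophages these counts were 7 and 7 of 32 proteases, and 7 and 2 of 17 of the others (25.8% and 8.38% of all genes). In adipocytes they were 6 and 6 of 25, and 3 and 5 of 17 (35.2% and 12.2% of all genes). In mesothelial cells they were 6 and 14 of 30 proteases, and 9 and 1 of 14 of the others (23.7% and 13.6% of all genes). In endothelial cells they were 3 and 8 of 19, and 7 and 4 of 15 (23.3% and 10.3% of all genes). The list's proteases had a median log2 ratio of -0.47 in mesothelial cells and -0.50 in endothelial cells, beside 0.09 and 0.11 over all genes measured there. The higher APC genes with the largest ratios were Mmp11 (stromelysin-3), with 12.2 and 61.7 CPM and a log2 ratio of 2.34 (1.91 to 2.78), Adam33, with 33.7 and 156 CPM (2.21), and Cst3, which encodes the cathepsin inhibitor cystatin C (1.17). Among the lower ones were Adamts4, an aggrecanase (14.6 and 4.66 CPM, -1.64) and Adamts6 (979 and 332 CPM, -1.56). In APCs Adam12 was thus lower together with these ADAMTS genes, and Mmp2 and Adamts1 were higher together with Mmp11 and Adam33.

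In macrophages the genes of the list with the largest ratios were Mmp9 (gelatinase B), with 0.651 and 4.7 CPM and a log2 ratio of 2.85 (1.97 to 3.82) at 0.225 and 0.59 times free RNA, Cst3, with 37 and 116 CPM (1.65), and Adamts5 (1.22), which at 0.0654 and 0.0551 times free RNA cannot be told apart from background. The lower ones were Ctsk, which encodes the collagen-cutting cathepsin K (63.4 and 16.4 CPM, -1.95), Adam22 (182 and 75 CPM, -1.28) and Adam8 (228 and 99.6 CPM, -1.20). In adipocytes the higher ones were Adamts6 (19.2 and 112 CPM, a log2 ratio of 2.55), Fap, which encodes fibroblast activation protein (2.50), and Timp4, the member of the inhibitor family that fat cells are known to make (26.4 and 63.4 CPM, 1.26). Among the lower ones were Bmp1, the procollagen C-proteinase (46.7 and 21.1 CPM, -1.14) and Pcsk5, a proprotein convertase (1454 and 822 CPM, -0.82). Adamts6 went in opposite directions in APCs and adipocytes, and the difference between the classes was not tested.

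The pattern of each member over classes was set against that of all other genes, as Pearson's r of log2(CPM + 1) over 22 points, each a class in a library; these points share 2 libraries and their free RNA, and r is a description. The genes most like Adam12 were Dnm3os (r = 0.90), Lamc1 (r = 0.88) and Asap2 (r = 0.87), and those most like Adamts1 were Kirrel (r = 0.95), Gulp1 (r = 0.94) and Fam13c (r = 0.92). Closest to Mmp2 were Cd248 (r = 0.91), Adgrd1 (r = 0.90) and Itgbl1 (r = 0.89), to Mmp14 Sorbs3 (r = 0.82), Pdia6 (r = 0.81) and Nhsl1 (r = 0.78), to Mmp12 Atp6v0d2 (r = 0.87), Slc39a12 (r = 0.83) and Il1rn (r = 0.83), to Mmp19 Man2a1 (r = 0.86), Eea1 (r = 0.86) and Ago3 (r = 0.84) and to Mmp3 Eef1akmt3 (r = 0.84), Arfgap3 (r = 0.71) and Smim14 (r = 0.70). The values of r for Mmp3 rest on few UMIs and show no shared pattern. Its 12.1 CPM in B cells of HF-HHT came from 1 UMI and exceeded the 10.6 CPM of APCs in HF-PBS. Among the inhibitors, Timp1 was closest to Cdh11 (r = 0.92), Cd248 (r = 0.90) and Cpxm1 (r = 0.89), Timp2 to Ahnak2 (r = 0.92), Flrt2 (r = 0.90) and Ecm1 (r = 0.86) and Timp3 to Prkg1 (r = 0.91), Schip1 (r = 0.91) and Thsd4 (r = 0.90). Between members, r was highest for Mmp2 and Timp1 (0.90), followed by Adam12 and Adamts1 (0.76), and lowest for Adamts1 and Mmp12 (-0.41). Cd248 appeared among the 3 nearest genes of both Mmp2 and Timp1.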

How the data were processed

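The authors aligned and counted reads with Cell Ranger 5.0.0 on mm10 (the submitters' processing notes), although the file headers and the study's reporting form name other versions. The inclusion of intronic reads was not given in the sources used here. The deposited counts are raw UMIs per gene and barcode, for all barcodes. Nuclei were called here by depth (3000 expected nuclei) and by a test against free RNA (at least 500 UMIs, 10000 simulations, false discovery rate 0.01). Doublets were scored in each library and 479 and 463 removed. Kept nuclei had over 400 genes, UMIs and genes under the 95th percentile and mitochondrial UMIs under 0.5%. Seurat 5.3.0 (R 4.3.3) integrated and clustered them, with the members and the wider list kept out of the features (14 clusters; states at a resolution of 1.0), and fixed markers named clusters. That 3 macrophage state lists could name macrophages was decided after the clusters were seen. Sums and intervals used numpy 2.4.6 and scipy 1.17.1, tested on simulated data, and TMM factors edgeR 4.0.16. Counts of 0 were set at 3 per library in ratios. There is no test, since each condition is 1 library. Named genes of the wider list were up to 3 higher and 3 lower per class with the largest ratio and at least 50 UMIs in the higher library, of which 1 gene is not reported here. Likeness used genes with at least 100 UMIs in a point, without predicted genes. Members and lists were chosen with earlier results of these data known.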

Additional observations from a re-analysis of the deposited data

Results flagged for a closer look

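Mmp14 was at least 1.5-fold higher in HF-HHT in macrophages (log2 ratio 3.06) and at least 1.5-fold lower in endothelial cells (-0.91) and mesothelial cells (-0.59). Adamts1 was higher in APCs (1.71) and lower in adipocytes (-1.11) and mesothelial cells (-0.76). In these classes each interval excluded 0 and the higher level was at least 2 times the estimated free RNA part of the class. That part is a low estimate and smaller than the level in free RNA itself. In the library with the higher level, Mmp14 stood at 0.869 times that level in macrophages, 1.46 in endothelial cells and 2.57 in mesothelial cells. Adamts1 stood at 1.98 times it in APCs, 2.78 in adipocytes and 1.32 in mesothelial cells. With classes from the markers of each nucleus, the mesothelial ratios were -0.06 for Mmp14 and -0.15 for Adamts1, and with equal weight per nucleus the endothelial ratio of Mmp14 was -0.55, all under the 1.5-fold limit. Within endothelial cells, the Mmp14 interval of the lymphatic cluster included 0 (-1.05 to 0.36). With 1 library per condition, the difference between classes was not tested.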

How the results depend on the processing

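Of 583 log2 ratios of a member under an alternative, 521 stayed within the counting interval, 59 lay outside it, and for 3 a ratio past 1.5-fold took the opposite sign; the cause was not tested. Smaller ratios could change sign too, as Adam12 in endothelial cells did with classes from the markers of each nucleus (-0.90). Adamts1 in macrophages went to 0.013 with classes from the markers of each nucleus, Mmp14 in adipocytes to -0.43 without upper depth limits, and Adamts1 in lipid-associated macrophages to 0.064 with free RNA subtracted from the state. All 3 rest on levels under free RNA. The count of lower members in macrophages was 2 with classes from the markers of each nucleus. The 1 higher member in adipocytes became 0 with TMM or median-of-ratios scaling, classes from the markers of each nucleus, equal weight per nucleus or a minimum of 50 UMIs, and 2 with free RNA subtracted. In mesothelial cells, higher members numbered 0 with every barcode of at least 500 UMIs or with doublets kept and 2 with mitochondrial UMIs up to 5%, and lower members 3 with classes from the markers of each nucleus or without the richest nucleus. In endothelial cells, lower members numbered 1 with free RNA subtracted, equal weight or the minimum of 50 UMIs, and higher members 0 with classes from the markers of each nucleus, equal weight or that minimum, and 2 with no minimum. Members at 2 times free RNA in mesothelial cells numbered 3 with free RNA from barcodes of 10 to 100 UMIs. Leaving out the richest nucleus, weighting clusters as in HF-PBS and subtracting free RNA from states were chosen after seeing the data. No replicate could be left out, and no paired analysis was possible because each condition is 1 library. The depth of a class limits the rare members, as counting intervals of genes with few UMIs, such as Mmp3, span 1.5-fold.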
